A study of Rattus norvegicus with 4 samples.

Results

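Interferon-stimulated genes were followed in rat pancreas at 3 levels of dietary iron. A list of 39 genes was used, of which 38 had a probe on the array (43 probes among 30367, and 38 genes among 26514), while Xaf1 had none. A probe belonged to a gene when the authors' tables gave it that symbol. The genes were chosen by what they are known for and with the log2 ratios of both comparisons already seen, so the counts and medians below are descriptions and carry no test. Weanling male Sprague-Dawley rats were fed an iron-deficient (FeD, 5 ppm iron), iron-adequate (FeA, 35 ppm) or iron-overload (FeO, 20275 ppm) diet for 3 weeks, with no other agent, and were fasted overnight before the pancreas was taken. RNA from the 6 rats of a diet was combined into 1 pool, and each of the FeD and FeO pools shared 2 dual-colour arrays, dyes swapped, with the FeA pool. Array 1 of a comparison carried the diet pool in Cy5 and array 2 carried it in Cy3. Both arrays hold the same pools and count as 1 replicate, so the difference between them is technical, and the spread among rats cannot be seen.

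Interferons are secreted when cells sense foreign nucleic acid or other danger signals. Type I interferon acts through its receptor on a transcription factor complex that includes Stat2 and Irf9 and binds the interferon-stimulated response element of target genes, whereas interferon gamma acts through the gamma-activated site. The targets code for RNA sensors, antiviral proteins, a ubiquitin-like modifier and its enzymes, and parts of the antigen processing machinery, and many of them are also expressed at a basal level in lymphocytes and macrophages.

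Promoter sequence was found by symbol for 32 of the 39 listed genes in the RefSeq table of assembly GRCr8. The core of the response element, searched as GAAA, any 2 bases and GAAA again, occurred on either strand within the 250 bases before the table's start site in 19 of the 32 (59.4%), against 3.41% of all 33469 promoters in the table. The core of the gamma-activated site, TTCNNNGAA, occurred in 10 of the 32 (31.2%), against 7.67% of all promoters, and 6 of the 32 held both. Runs of 60 bases around the match nearest the start site are shown for 6 genes with a log2 ratio of at least 0.5 in FeD, 5′ to 3′ on the strand of the gene, because these are the members whose levels the results turn on. Capitals mark the response element core, which reads as TTTC, 2 bases and TTTC when it lies on the opposite strand, and adjoining capitals in Oas1a and Bst2 are overlapping copies.
Irf7 (chr1:205800058-205800117, minus strand): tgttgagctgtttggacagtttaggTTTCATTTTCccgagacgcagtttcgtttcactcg
Rsad2 (chr6:48788233-48788292, minus strand): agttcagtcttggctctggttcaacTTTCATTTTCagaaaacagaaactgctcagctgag
Oas1a (chr12:41330406-41330465, plus strand): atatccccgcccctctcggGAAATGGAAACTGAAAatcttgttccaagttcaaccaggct
Bst2 (chr16:18255058-18255117, minus strand): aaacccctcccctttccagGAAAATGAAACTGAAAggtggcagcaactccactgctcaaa
Ifitm3 (chr1:205541768-205541827, minus strand): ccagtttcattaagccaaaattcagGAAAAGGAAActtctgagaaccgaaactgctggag
Ifi27 (chr6:128355203-128355262, plus strand): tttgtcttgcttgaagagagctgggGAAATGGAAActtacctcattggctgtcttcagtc
The response element core was not found in the 250 bases of Mx1, Psmb8 and Psmb9, and Psmb8 held 1 copy of TTCNNNGAA. A match describes the letters only and says nothing on binding.

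Values are log2 ratios of the diet pool over the FeA pool, computed from the authors' scanner signals after background correction and loess normalization within each array. Signals are given in intensity units after normalization of both channels, and they are comparable between pools for 1 probe but not between probes. The median spot signal of gene probes lay between 115 and 222.5 units per channel over a local background of 50 to 87, and the scanner software marked 61.9% to 71.5% of gene spots in a channel as well above background. By the file headers all 4 arrays carry the barcode of 1 slide and came from 1 scan, although the labels number them as slides. A gene was called higher or lower when its mean log2 ratio was at least 1 in size (a 2-fold difference), had the same sign on both arrays, and at least 1 of its probes was well above background on both arrays in at least 1 of the 2 pools. The cutoff of the study, a log2 ratio of 2, and a smaller size of 0.5 are given beside it.

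In FeD pancreas most interferon-stimulated genes lay above FeA. The 38 genes had a median log2 ratio of 0.24, with 0.25 on array 1 and 0.24 on array 2, while the median of all genes on the array was 0.01 on each. Of the 38, 28 were higher than FeA on both arrays, 2 were lower on both (Isg20 and Dtx3l) and 8 had opposite signs. Among all genes, 25.5% were higher on both arrays and 22.3% were lower on both. Irf7 and Mx1 were the 2 genes called at a log2 ratio of 1, and 0 were called lower, where 0.0679% of all genes were called higher and 0.136% lower. At a size of 0.5, 10 genes were higher (Irf7, Mx1, Rsad2, Isg15, Psmb8, Bst2, Ifitm3, Psmb9, Ifi27 and Oas1a) and 0 were lower, against 0.943% and 0.524% of all genes. None reached the study's cutoff of 2, which 0.0113% of all genes passed upward and 0.049% downward. Of the 38 genes, 32 had a probe well above background in at least 1 pool, and the medians and the counts of signs include the others, Dtx3l among them. By role, the median was 0.54 for antigen processing (3 genes), 0.36 for the secreted proteins (2) and 0.29 for the transcription factors (4). It was 0.28 for the GTPases (3), 0.26 for the modifiers (7), 0.21 for the antiviral effectors (16) and 0.16 for the RNA sensors (3). The smaller roles rest on few genes, so the order of the roles says little. With the processed signals of the scanner software the median of the list was 0.49, against -0.05 for all genes, and 6 genes were called higher, against 0.524% of all genes, adding Rsad2 (1.66), Isg15 (1.33), Oas1a (1.11) and Psmb8 (1.04). On array 1 alone Irf7 (0.99) lay just under the line and Rsad2 and Isg15 above it.

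**Figure D1:**
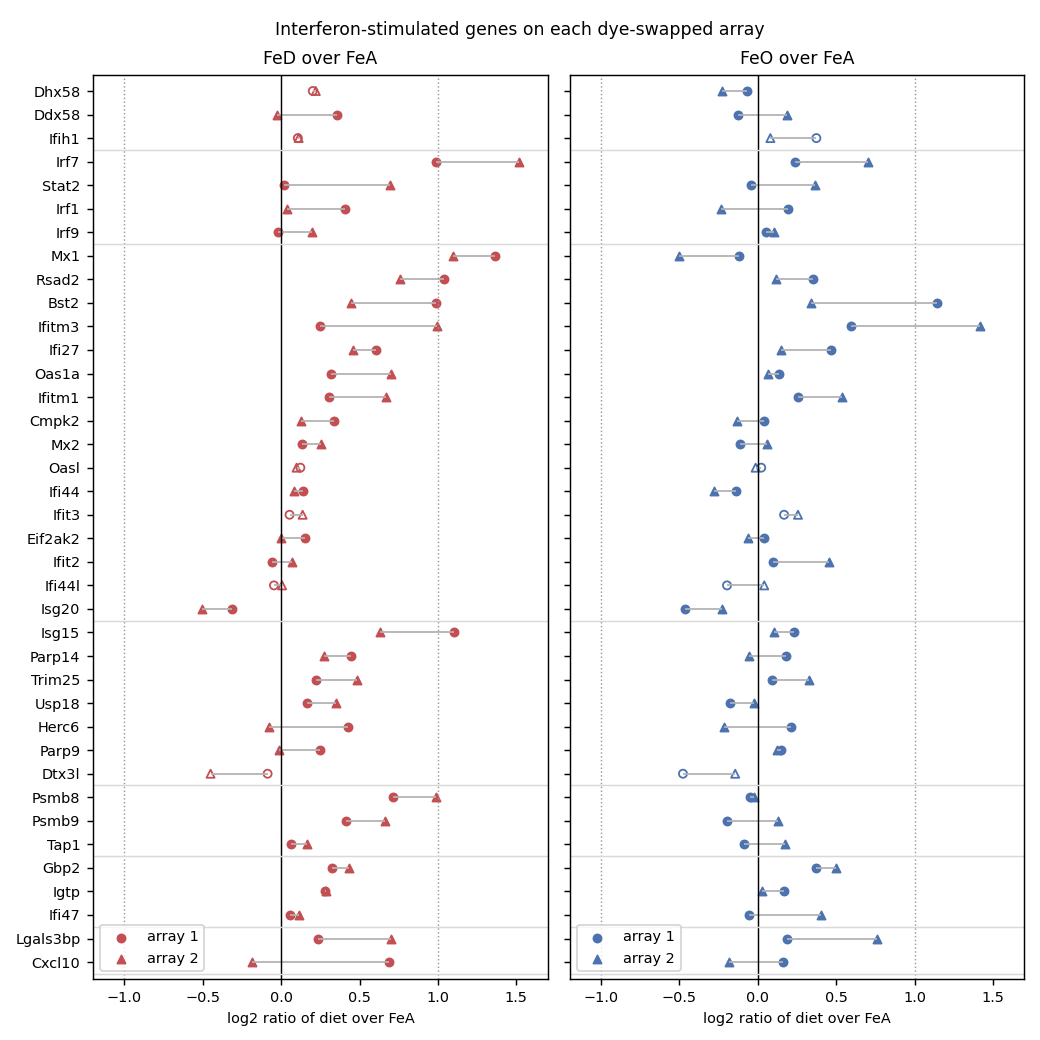
Log2 ratio of diet over FeA for each of the 38 genes, with FeD on the left and FeO on the right. Circles are array 1, triangles are array 2, open symbols are genes without a probe well above background in a pool, the dotted lines mark a log2 ratio of 1 in size, and grey lines separate the roles in the order of the text. In FeD 28 genes have both symbols to the right of 0, and in FeO 17 genes do.

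Of the RNA sensors that start the interferon response, 1 of 3 passed the filter in FeD. Ddx58, which codes for RIG-I, had log2 ratios of 0.36 and -0.03 in FeD. Ifih1, which codes for MDA5, was not well above background in FeD or FeA. Dhx58, their partner LGP2, was not well above background in FeA on the FeD arrays, and FeD was so on 1 of 2. There it was at least 1.12-fold higher in FeD. On the FeO arrays, however, the same FeA pool gave 95.3 and 93.7, above both FeD signals (89.1 and 80.1).

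Among the transcription factors, Irf7 stood out. Irf7 drives the transcription of interferon genes and is itself induced by interferon. On array 1 its signal was 539.9 in the FeD pool against 273 in the FeA pool, and on array 2 it was 688 against 239.9. Both FeD signals lay above all 4 FeA signals of the series, the other FeA signals being 263 and 230.2. The share of all genes with such a gap was not counted, here or for the genes below. All 4 channels hold the same FeA pool, so a high ratio largely brings the gap with it, and the gap adds no support. The log2 ratios were 0.99 and 1.52 (mean 1.25, a 2.38-fold difference), rank 7 from the highest among the 26505 genes with a value. Stat2 and Irf9, which belong to the type I complex, had ratios of 0.01 and 0.70 (mean 0.36) and of -0.02 and 0.20 (mean 0.09). The 2 probes of Irf1, a factor induced mainly by interferon gamma, gave means of 0.20 and 0.25. The first had ratios of 0.21 and 0.19, and the second had opposite signs (0.61 and -0.12).

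The antiviral effectors included the second gene called. Mx1 codes for a dynamin-like GTPase that blocks virus replication. Its signal in FeD was 726 and 684 on the 2 arrays, against 282 and 319.6 in FeA. The FeD signals did not overlap the 4 FeA signals, which ran from 270.1 to 321. The log2 ratios were 1.36 and 1.10 (mean 1.23, a 2.35-fold difference), rank 9 from the highest. Mx2, its cytoplasmic relative in the rat, had a mean of 0.19.

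Rsad2 codes for viperin, a radical SAM enzyme with an iron-sulfur cluster that makes a chain-terminating nucleotide. Its signals were 264 and 210.0 for FeD, against 128 and 124 for FeA, with log2 ratios of 1.04 and 0.76 (mean 0.90), just below the 2-fold line. Cmpk2, the mitochondrial nucleotide kinase encoded beside Rsad2 on chromosome 6, had ratios of 0.34 and 0.12 (mean 0.23). Bst2, the tetherin that holds budding virus at the cell surface, had FeD signals of 1896 and 2021 and FeA signals of 958 and 1487 (log2 ratios 0.98 and 0.44, mean 0.71). Ifitm3, a membrane protein that hinders virus entry, had FeD signals of 691 and 887 and FeA signals of 583 and 446 (0.25 and 0.99, mean 0.62). The 2 arrays differed by 0.54 for Bst2 and by 0.75 for Ifitm3, in opposite directions.

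Ifi27, a small mitochondrial protein, had FeD signals of 3742 and 3433 against FeA signals of 2458 and 2502 (log2 ratios 0.61 and 0.46, mean 0.53). Oas1a, an oligoadenylate synthetase that activates RNase L, had FeD signals of 136 and 141 against 109 and 86.8 (0.32 and 0.70, mean 0.51). Both genes were higher in FeD than in any FeA channel of the series, as were all other genes of the list higher in FeD at a size of 0.5. These genes were picked by their ratio over the same FeA pool, so the pattern is largely fixed by that choice. Ifitm1 was close behind, with ratios of 0.30 and 0.67 (mean 0.49). The remaining effectors were nearer to FeA, with means of 0.07 for the kinase Eif2ak2 (PKR), 0.01 for Ifit2 and 0.11 for Ifi44. Eif2ak2 and Ifit2 had opposite signs on the 2 arrays. Ifit3, not well above background in FeA and so on 1 of 2 arrays in FeD, had log2 ratios of 0.05 and 0.14 (mean 0.09). Its bound of 1.07-fold equals the measured mean ratio, which is smaller than the median difference between arrays (0.23). Neither Oasl nor Ifi44l was well above background on any array. Isg20, an RNA exonuclease, was the lowest gene of the list, with signals of 562 and 487 in FeD against 699 and 689.9 in FeA (log2 ratios -0.32 and -0.50, mean -0.41).

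Isg15 codes for a ubiquitin-like protein that is joined to other proteins during the interferon response. Its signal was 345 and 275 in FeD and 161 and 178 in FeA, and both FeD signals lay above all 4 FeA signals. The log2 ratios were 1.10 and 0.63 (mean 0.87). The enzymes of the same pathway differed less. Usp18, which removes Isg15, had ratios of 0.16 and 0.35 (mean 0.26), the ubiquitin ligase Trim25 of 0.22 and 0.48 (mean 0.35), and Herc6, an Isg15 ligase, of 0.43 and -0.08 (mean 0.18). The ADP-ribosyltransferase Parp14 gave 0.50 by the probe well above background in both pools. By the other, dim in FeA and on 1 of 2 arrays in FeD, it was at least 1.13-fold higher in FeD. Parp9 had ratios of 0.25 and -0.02 (mean 0.12), and its partner Dtx3l was not well above background in FeD or FeA.

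Antigen processing genes were higher in FeD on both arrays. Psmb8, a catalytic subunit of the immunoproteasome, had signals of 696 and 645 in FeD against 424 and 326 in FeA (log2 ratios 0.72 and 0.99, mean 0.85). Psmb9, another such subunit, had signals of 426 and 526 against 319 and 332 (0.42 and 0.66, mean 0.54). Tap1, which carries peptides into the endoplasmic reticulum and whose promoter window overlaps that of Psmb9, had ratios of 0.06 and 0.16 (mean 0.11). Outside the list, the remaining catalytic subunit Psmb10 had a mean of 0.06 and the partner transporter Tap2 of 0.42.

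The interferon-induced GTPases Gbp2, Igtp and Ifi47 had means of 0.38, 0.28 and 0.08. The 2 Igtp probes gave 0.20 and 0.36. Of the secreted proteins, the chemokine Cxcl10 had ratios of 0.69 and -0.18 (mean 0.25), with opposite signs, and Lgals3bp of 0.23 and 0.70 (mean 0.47).

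**Figure D2:**
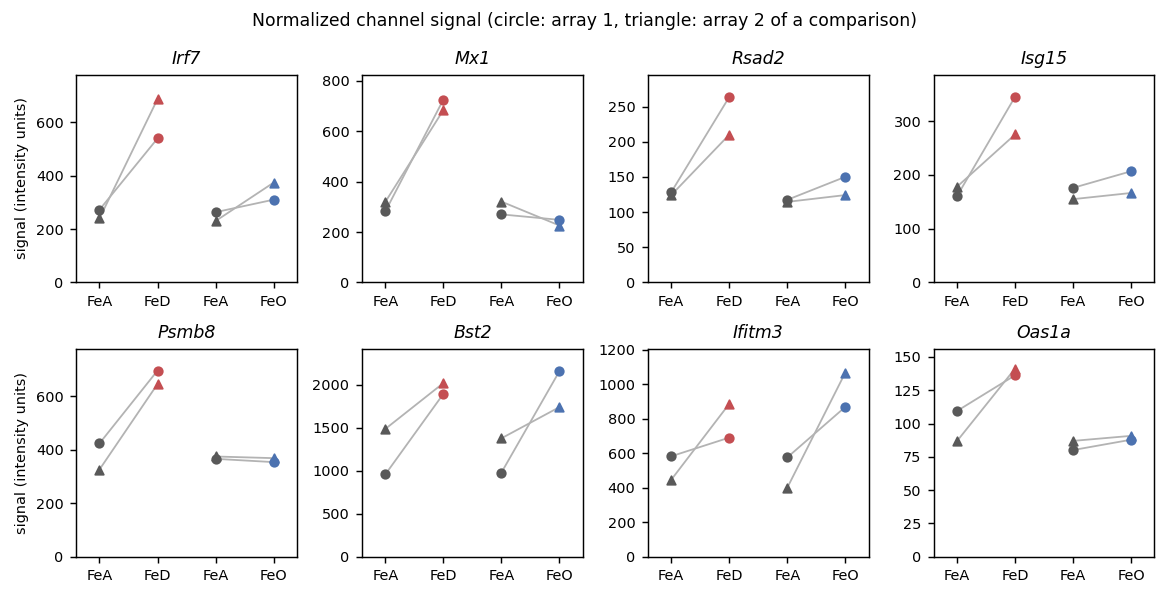
Normalized signal in intensity units (vertical axis, from 0) of 8 genes in each pool, with the FeD comparison on the left and the FeO comparison on the right of each panel. Each line joins the 2 channels of 1 array. All 8 genes, picked among those higher in FeD at a size of 0.5, are higher there than in every FeA channel, which that choice largely fixes. The share of all genes with this pattern was not counted. For Psmb8 the signals of the FeO comparison lie together at 354 to 375.

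In FeO pancreas the list lay close to FeA. The 38 genes had a median log2 ratio of 0.07, with 0.09 on each array, against 0.01 for all genes. Of the 38, 17 were higher on both arrays, 7 were lower on both (Dhx58, Mx1, Isg20, Ifi44, Usp18, Dtx3l and Psmb8) and 14 had opposite signs, where 26.6% of all genes were higher on both and 24.6% lower on both. Ifitm3 was the 1 gene called higher at a log2 ratio of 1, and 0 were called lower, against 0.359% and 0.279% of all genes. At a size of 0.5, Ifitm3 and Bst2 were higher and 0 were lower, against 1.96% and 1.19% of all genes. None reached the study's cutoff of 2, which 0.0378% of all genes passed upward and 0.0718% downward. A probe well above background in at least 1 pool was present for 33 of the 38 genes. With the processed signals the median was 0.15, against -0.06 for all genes, and Ifit2 was called besides Ifitm3, against 1.28% of all genes called higher.

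Ifitm3 had signals of 869 and 1068 in FeO against 576 and 400.1 in FeA. The log2 ratios were 0.59 and 1.42 (mean 1.01), so the call rests on array 2, and array 1 alone gives 0.59. Bst2 had signals of 2160.3 and 1742 against 979 and 1378 (1.14 and 0.34, mean 0.74), and here array 1 alone passes the 2-fold line. Lgals3bp (0.18 and 0.76, mean 0.47), Irf7 (0.24 and 0.70, mean 0.47), Gbp2 (0.37 and 0.50, mean 0.43) and Ifitm1 (0.26 and 0.53, mean 0.40) followed.

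At the other end in FeO, Isg20 had ratios of -0.46 and -0.23 (mean -0.35), much as in FeD. Mx1 had signals of 248 and 226 in FeO against 270.1 and 321 in FeA (log2 ratios -0.12 and -0.51, mean -0.31). Dtx3l, well above background on 1 of 2 arrays in FeA and on 0 of 2 in FeO, was at least 1.20-fold lower in FeO. On the FeD arrays, however, the FeA pool gave 74.1 and 77.4, beside 74.6 and 71.4 in FeO. Rsad2 and Isg15 had means of 0.24 and 0.17, and Psmb8 and Psmb9 of -0.04 and -0.03. The sensors Ddx58 and Dhx58 had means of 0.03 and -0.15. For Ifih1 and Ifit3, FeA was not well above background, and FeO was so on 1 of 2 arrays. They were at least 1.04-fold and at least 1.07-fold higher in FeO, with mean FeO signals of only 80.7 and 81.1.

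Set side by side, 28 of the 38 genes had a higher mean ratio in FeD than in FeO, as had 50.2% of the 26470 genes with both values. Both comparisons share the FeA pool, so the ratios are not independent, and the difference was not tested. It exceeded 0.5 for 6 genes, namely Mx1 (1.54), Psmb8 (0.89), Irf7 (0.78), Isg15 (0.70), Rsad2 (0.66) and Psmb9 (0.57), and was below -0.5 for 0, against 1.39% and 1.3% of all genes. Ifitm3 had the lowest difference, -0.39.

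**Figure D3:**
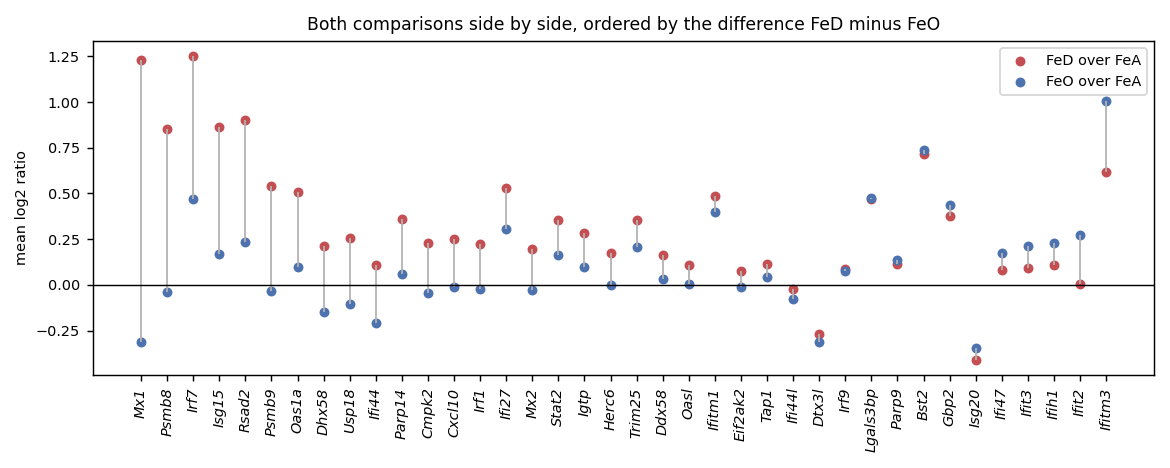
Mean log2 ratio (vertical axis) of each gene (horizontal axis) in FeD over FeA (red) and FeO over FeA (blue), ordered by the difference FeD minus FeO. The gap is widest for Mx1 (1.23 against -0.31), and for Bst2, Lgals3bp and Gbp2 both values lie together above 0.

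The swapped arrays limit what can be read from single genes. Their ratios differed by a median of 0.23 (log2 scale) over the 38 genes in FeD and 0.24 in FeO, with the largest differences at 0.87 and 0.82. The sign of the difference was the same in both comparisons for 31 of the 38 genes, and for 68.1% of all genes. Ifitm3 was higher on array 2 by 0.75 in FeD and 0.82 in FeO, and Bst2 was higher on array 1 in both. The mean of a swapped pair balances such a difference.

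The rest of the pathway was followed with genes that are not on the list. The ligand genes Ifna1, Ifnb1, Ifng and Ifnk did not pass the filter on dim probes in either comparison. Of 8 receptor and signal genes, 0 reached a size of 0.5 in either diet. Few of all genes did so, 0.943% upward and 0.524% downward in FeD, and 1.96% and 1.19% in FeO. Stat3 had the highest mean of the 8 receptor and signal genes in FeO, 0.46. Of 8 regulators and 8 genes of upstream sensing, 0 reached 0.5 in either diet, and the sensing genes had medians of 0.02 in FeD and -0.09 in FeO.

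Other known interferon targets were measured by 31 genes in FeD and 30 in FeO. Their median log2 ratio was 0.15 in FeD, with 18 genes higher on both arrays and 0 lower on both, and -0.02 in FeO, with 7 higher and 9 lower. Among all genes, 25.5% were higher and 22.3% lower on both arrays in FeD, and 26.6% and 24.6% in FeO, so the FeO counts lay near the share of all genes. Sp110, a nuclear body protein, was the 1 gene past 0.5 in FeD (0.53 and 0.56, mean 0.54), and 0 were past it in FeO. Of all genes, 0.943% passed it upward in FeD and 1.96% in FeO. Rtp4 (mean 0.50), Oas1k (0.47), Phf11 (0.45), B2m, the light chain of MHC class I (0.44), and the peptide transporter Tap2 (0.42) came next in FeD and are named here because of these values. In FeO these genes had means of -0.05, 0.10, -0.43, 0.05 and 0.18.

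Lymphocyte markers lay above FeA in FeD, beside the interferon-stimulated genes, and below FeA in FeO. Of 10 T and B lymphocyte markers, 9 were higher in FeD on both arrays and 6 passed 0.5 (median 0.53). In FeO, 8 of the 10 were lower on both arrays and 3 passed 0.5 downward (median -0.43). Among all genes, 25.5% were higher on both arrays in FeD and 24.6% lower on both in FeO. For this and the next lists, 0.943% of all genes passed 0.5 upward and 0.524% downward in FeD, and 1.96% and 1.19% in FeO. Summed over the list, the lymphocyte signal in FeD was 156% and 160.1% of that in FeA on the 2 arrays, and in FeO 62.7% and 68.0%. Without Cd3d, the brightest of these probes, the values were 155% and 170.1% (FeD) and 57.9% and 64.9% (FeO). Cd3g, a chain of the T cell receptor complex, had means of 0.88 in FeD and -1.19 in FeO, and the leukocyte marker Ptprc of 0.65 and -0.43. Of 8 macrophage and monocyte markers, 2 passed 0.5 in FeD (C1qa and Lyz2) and 3 in FeO (Cd163, Cd14 and C1qa), all upward, with medians of 0.22 and 0.27. Their summed signal was 165% and 124% of that in FeA on the FeD arrays, and 129% and 84.2% on the FeO arrays. Lyz2 carried much of that sum, and without it the values were 136% and 120% (FeD) and 139.9% and 127% (FeO). Of 5 natural killer markers, Prf1 passed 0.5 in FeD (mean 0.56) and 0 did in FeO, and the 5 endothelial markers had medians of 0.31 and 0.39. Of 4 plasmacytoid and dendritic markers, 0 passed 0.5 in either diet (medians 0.06 and 0.14). Siglech, a plasmacytoid cell marker, and Xcr1 stayed dim on every array. Tcf4, the brightest of them, had means of 0.29 in FeD and 0.17 in FeO, and Flt3 of 0.02 and 0.22. In pooled bulk RNA, more cells of a type and more RNA per cell cannot be told apart, and the part of these cells in the ratios of the interferon-stimulated genes was not tested.

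All 5 acinar and all 5 islet markers measured on the FeD arrays were well above background in at least 1 pool. So were all 6 intestinal epithelial and all 4 adipocyte markers, so passing this filter does not single out pancreas. Of 6 intestinal epithelial markers, 5 were lower than FeA by a log2 ratio of at least 1 in each diet (medians -1.37 and -1.78). Of all genes, 0.136% were called lower at that size in FeD and 0.279% in FeO. Of 4 adipocyte markers, 3 were higher by at least 1 in FeO (median 1.99) and 0 in FeD, against 0.359% and 0.0679% of all genes. The islet markers had medians of -0.44 in FeD and -0.77 in FeO. In FeO 4 of the 5 were lower on both arrays, and Gcg was higher (mean 1.14). The acinar medians were -0.04 over 5 markers in FeD and -0.25 over 3 in FeO. In FeD 2 passed 0.5 upward (Ctrb1, mean 0.60, and Cela1, 0.53), against 0.943% of all genes, and 0 did in FeO. Summed over Ctrb1, Cela1 and Pnlip, the signal was 134% and 120% of that in FeA on the FeD arrays, and 97.8% and 82.2% on the FeO arrays. Cela1, Cpa1, Ctrb1 and Pnlip were saturated in at least 1 channel of the FeD arrays, which limits their ratios. Whether these tissue differences bear on the interferon-stimulated genes was not tested.

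**Figure D4:**
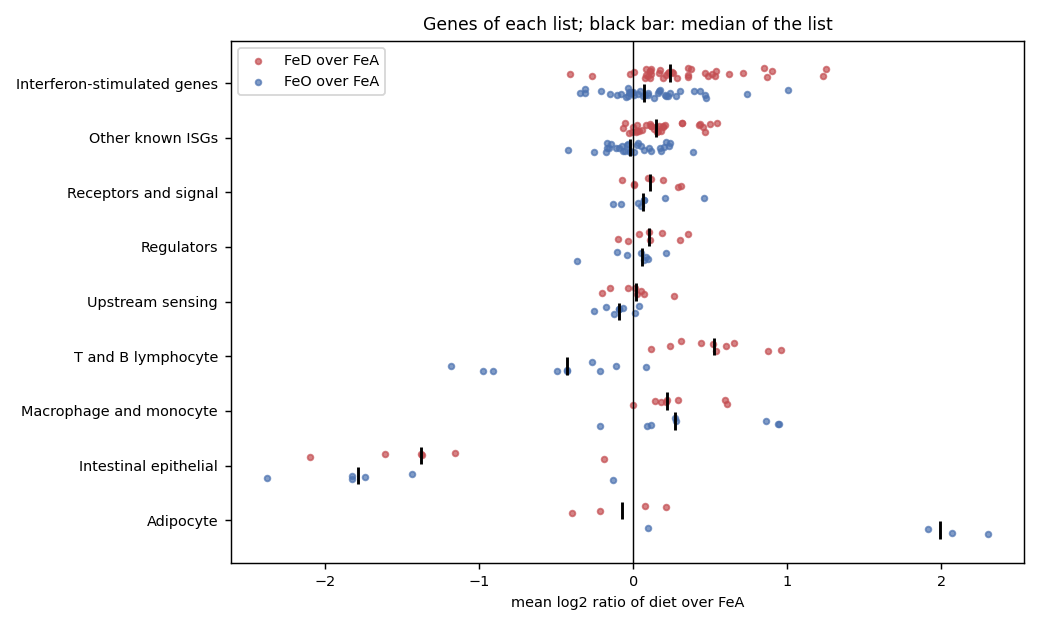
Mean log2 ratio (horizontal axis) of the genes of each list in FeD over FeA (red) and FeO over FeA (blue), with the median of each list as a black bar. The lymphocyte medians are 0.53 and -0.43, whereas those of the interferon-stimulated genes are 0.24 and 0.07.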

How the data were processed

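The intensity values were deposited by the authors as scanner files of 4 dual-colour arrays, made with Agilent Feature Extraction 10.1.1.1 on a probe design of build rn4. The software left the median spot and background signals as scanned, and corrected the processed ones for background and dye. The authors' 2 comparison tables also hold fold changes, p-values and q-values, none of which were used. They supplied the probe symbols.

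In R 4.3.3 with limma 3.58.1, background was corrected by normexp (offset 50), control and outlier spots (722 to 938 per array) were left out, and loess was applied within arrays. Spots of a probe and probes of a gene were averaged. A probe was well above background when over 50% of its spots were. For genes dim in 1 pool, the bound sets the brighter pool against the dimmer pool's own signal or the array's lowest one well above background, whichever is higher, after Aquantile. It makes no allowance for the difference between arrays, so a small bound is no guaranteed minimum. Tables were made in Python 3.11.15 (pandas 2.3.3, numpy 2.4.6).

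Depth has no meaning here, and precision is limited by the number of arrays. Each diet is 1 pool, so no test of the diets was made. The members, gene lists and alternatives were chosen with earlier results of these data known. All listed genes are named, with values for those at 0.5 or more in size. The scripts were tested on simulated data, in which measured ratios were smaller than the true ones. The values of 1 gene of the receptor and signal list are not reported here.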

Additional observations from a re-analysis of the deposited data

Results flagged for a closer look

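Of the interferon-stimulated genes, 5 lay above FeA on both FeD arrays and below FeA on both FeO arrays, a pattern shown by 5.43% of all genes, and the difference between the comparisons was not tested. The mean log2 ratio in FeD exceeded that in FeO by 1.54 for Mx1, by 0.89 for Psmb8, by 0.36 for Dhx58, by 0.36 for Usp18 and by 0.32 for Ifi44. For Dhx58 the mean signals of the FeD and FeO pools were alike (84.5 and 85.3). Its FeA signal was 73.0 on the FeD arrays, not well above background, and 94.5 on the FeO arrays. The 2 probes of Usp18 gave 0.36 and 0.15 in FeD and 0.02 and -0.22 in FeO. Both comparisons use the same FeA pool, and 0 genes of the list lay the other way, a pattern shown by 4.59% of all genes.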

How the results depend on the processing

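The median ratio of the list stayed above 0 in both comparisons under all alternatives run. Values in FeD and FeO were 0.24 and 0.07 as reported, 0.20 and 0.0659 with no background subtraction, 0.38 and 0.11 with normexp at offset 0, 0.49 and 0.15 with the processed signals, 0.36 and 0.0769 when both pools had to be well above background, 0.22 and 0.0523 with the brightest probe, and 0.25 and 0.0872 with accession-matched members only. Median centring gave 0.0591 in FeO, and leaving out either array gave 0.24 to 0.25 in FeD and 0.0916 to 0.0939 in FeO. Aquantile changes no ratio within an array.

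Genes higher at a log2 ratio of 1 numbered 2 in FeD and 1 in FeO. Normexp at offset 0 gave 4 in FeD (Irf7, Mx1, Rsad2 and Isg15), and the processed signals gave 6 in FeD (also Oas1a and Psmb8) and 2 in FeO (Ifit2 and Ifitm3). The share of all genes called higher in FeD rose as well, from 0.0679% as reported to 0.211% at offset 0 and 0.524% with the processed signals. In FeO the shares were 0.359%, 0.714% and 1.28%. Without array 2, the genes were Mx1, Rsad2 and Isg15 in FeD and Bst2 in place of Ifitm3 in FeO, and without array 1 they were those reported, so the count was 2 to 3 in FeD and 1 in FeO. A size of 2 gave 0 and 0, and a size of 0.5 gave 10 and 2. With no size, a rule chosen after seeing the data, 28 and 17 were higher and 2 and 7 lower. The methods' t-test on channel signals left 2 and 0 genes past the size, and 0 and 0 after Benjamini-Hochberg adjustment, while limma with that adjustment left 2 (Irf7 and Mx1) and 0. Without the size, unadjusted p under 0.05 was reached by 9 and 1 genes of the list in the methods' t-test and by 18 and 7 in limma, where 5.18% and 6.52% of all probes reached it in the t-test and 5.11% and 7.42% in limma. The genes were chosen with these ratios seen, and both tests see only the technical error between pools, so the counts support nothing. Single values of the genes changed by less than the spread between arrays in 730 of 814 cases, and no called gene changed sign. No paired analysis was possible because a comparison is 1 pool against 1 pool. Probes not well above background in 1 pool give only bounds, and those not above it in both give neither ratio nor bound, though medians and sign counts include them.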
